A study of Mus musculus with 24 samples.

Results

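The enzymes and binding proteins of DNA methylation were described here by 10 listed genes among the 52636 genes counted in each library. They were the writers Dnmt1, Dnmt3a and Dnmt3b, the maintenance cofactor Uhrf1, the erasers Tet1, Tet2 and Tet3, and the methyl-CpG binding domain genes Mbd1, Mbd2 and Mbd3. The members were chosen by name, not by any measured value, and all 10 passed the filter on low counts in every comparison. RNA-seq was done on bilateral punches of the nucleus accumbens (NAc), a reward region of the ventral striatum, from C57BL/6 mice (C57BL/6J in the study's methods) at 50 days of age. Each of 4 groups held 6 animals: control females (Con females), control males (Con males), and both sexes of litters taken from a dam that was itself stressed at unpredictable times (MSUS females and MSUS males). By the labels the MSUS litters were separated for 2 h per day from postnatal day 1 to 14, whereas the methods of the study give a longer daily separation, and control litters were left undisturbed. By the study's methods each female group mixed high- and low-estrogenic animals in equal proportion. The animals had received no drug. The labels tie no animal to a litter, although litters were what was assigned to MSUS or Con, so p-values measure the spread between animals that may share a litter.

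DNA methylation adds a methyl group to cytosine, mostly where a guanine follows (a CpG). Dnmt3a and Dnmt3b place new marks, Dnmt1 copies them to the new strand after replication with the help of Uhrf1, and the Tet enzymes oxidise methylcytosine as a step towards its removal. The Mbd proteins share a domain that in Mbd1 and Mbd2 binds methylated CpGs, while mammalian Mbd3 binds them poorly and is known as a subunit of the NuRD nucleosome remodelling and deacetylase complex. Neurons no longer divide but still express Dnmt1, Dnmt3a and Tet transcripts. The values below are RNA levels, not methylation.

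Total sense counts ranged from 39923666 to 70575745 per library. All 9 medium spiny neuron markers, which define the principal cell of the NAc, had counts in every library, and their summed normalized count ranged from 83976 to 241515 among Con females and from 157743 to 216435 among MSUS females. No listed marker of any cell type was at 0 in any library. Markers of cortical excitatory neurons varied far more, with summed levels of 7314 to 77892 (Con females), 2001 to 52464 (Con males), 461 to 31730 (MSUS females) and 2255 to 77603 (MSUS males). Of the 60 pairs of libraries within a group, none agreed within sampling noise (chi-square per degree of freedom of at least 6.34). The unassigned share, which is the percentage of uniquely mapped pairs that fell in no annotated sense exon, averaged 32.7% ± 1.55 over the Con females and 39.97% ± 2.72 over the MSUS females (SD, n = 6 each). These groups did not overlap, with 31.0 to 34.8% against 36.3 to 43.9% (exact two-sided permutation test, p = 0.00216, the smallest that 6 against 6 allows). In males the share was 38.0% ± 2.23 in Con and 37.2% ± 4.55 in MSUS (exact two-sided permutation test, p = 0.684, n = 6 each). In bulk tissue fewer cells of a type and less RNA per cell cannot be told apart.

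The promoter sequences of Tet2 and Mbd3 are printed because these were the members whose RNA differed between MSUS and Con females, and because the letters CG are themselves the substrate of this pathway. RefSeq promoter windows of 300 bases around a transcript start (build GRCm38.p6) were matched for 8 of the 10 members, in 13 windows. Both sequences run 5′ to 3′ along the gene's own strand, with every CpG in capitals. The Tet2 window is chr3:133544341-133544640 on the minus strand and the Mbd3 window is chr10:80399482-80399781 on the minus strand.
Tet2: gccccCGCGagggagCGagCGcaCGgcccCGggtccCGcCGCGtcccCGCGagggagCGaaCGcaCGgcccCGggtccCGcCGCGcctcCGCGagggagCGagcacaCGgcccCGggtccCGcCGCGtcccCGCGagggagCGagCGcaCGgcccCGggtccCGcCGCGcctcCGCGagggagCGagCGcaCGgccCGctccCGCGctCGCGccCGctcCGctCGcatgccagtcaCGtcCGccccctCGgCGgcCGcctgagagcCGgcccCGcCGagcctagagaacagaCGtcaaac
Mbd3: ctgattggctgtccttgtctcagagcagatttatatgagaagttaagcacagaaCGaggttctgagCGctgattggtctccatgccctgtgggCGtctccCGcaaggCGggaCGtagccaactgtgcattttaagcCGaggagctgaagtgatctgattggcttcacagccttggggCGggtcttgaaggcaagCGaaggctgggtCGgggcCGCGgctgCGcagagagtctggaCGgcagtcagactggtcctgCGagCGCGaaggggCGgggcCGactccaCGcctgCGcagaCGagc
The Tet2 window held 57 CpGs, more than 99.8% of the 32851 promoter windows in the table, whose median was 7. The Mbd3 window held 22, more than 76.9% of windows. The GC box letters GGGCGG, searched on both strands with overlapping matches counted, occurred 1 time in the Tet2 window and 2 times in the Mbd3 window, and 35.7% of all windows held at least 1 match. All 8 matched members had at least 1 window with a match. Some members had several windows, so this count cannot be set against the share of all windows. Such a match describes the letters and is not evidence of a bound factor.

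Per length, the members spanned more than 100-fold in level, and neighbours in their order overlapped in part. The scale was the count scaled to library size (CPM) per kilobase of exon, averaged over the 24 libraries. Mbd3 was the highest at 29.4 ± 1.38, followed by Mbd2 at 14.3 ± 0.825 and Dnmt3a at 13.3 ± 0.851 (SD, n = 24). Next came Dnmt1 at 10.2 ± 0.451, Tet3 at 9.64 ± 0.532, Mbd1 at 7.74 ± 0.371 and Tet2 at 7.44 ± 0.672. Tet1 lay lower at 3.04 ± 0.143, and Uhrf1 at 0.544 ± 0.334 and Dnmt3b at 0.175 ± 0.0386 were the lowest. Mbd3 stood at the 91.6th percentile of the 15244 protein-coding genes tested, Dnmt3a at the 77.8th and Dnmt3b at the 7.38th. Some neighbours in this order were close. Mbd2 exceeded Dnmt3a in 21 of 24 libraries, Dnmt1 exceeded Tet3 in 18 and Mbd1 exceeded Tet2 in 18, with overlapping ranges in each case. The ranges of Mbd3 and Mbd2, of Tet3 and Mbd1, and of Tet2 and Tet1 did not overlap.

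**Figure D1:**
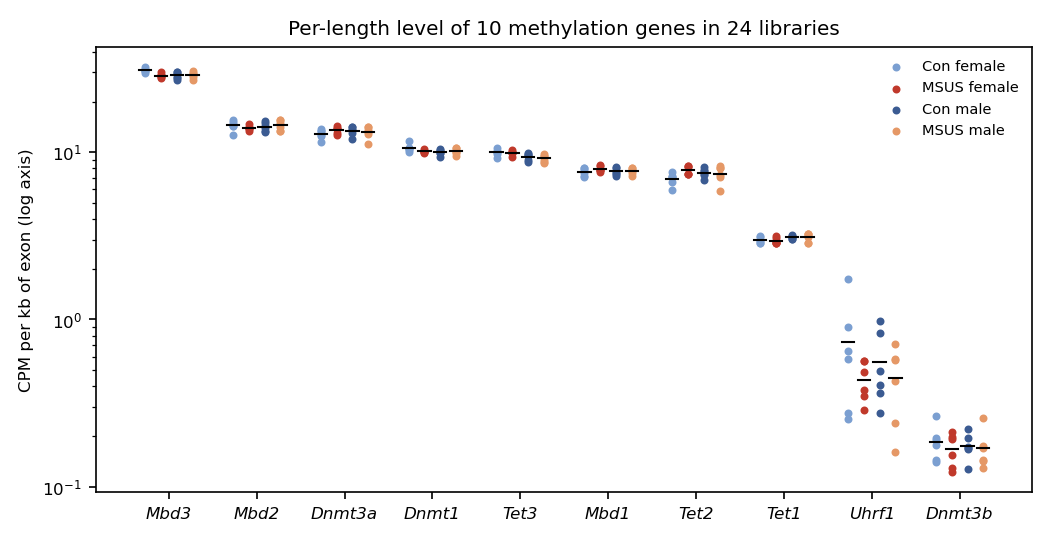
Per-length level of each member (CPM per kilobase of exon, log axis) in every library, by group, with group means as black bars. Mbd3 was highest at a mean of 29.4, Dnmt3b lowest at 0.175, and Uhrf1 spread most between animals.

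The members also differed in how much they varied between libraries, mainly through Dnmt3b and Uhrf1. The coefficient of variation over the 24 libraries was 4.49% for Dnmt1, 6.14% for Dnmt3a and 8.87% for Tet2, but 21.97% for Dnmt3b and 61.5% for Uhrf1. Counting error accounts for a coefficient of variation of 14.5% at the mean count of Dnmt3b, 9.03% at that of Uhrf1 and at most 2.02% for each of the others. Dnmt3b, the embryonic de novo enzyme, was therefore measured imprecisely (33.1 to 71.9 normalized counts). Uhrf1 ranged from 36.0 to 395.1 normalized counts, well beyond its counting error.

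In females, 2 of the 10 members passed the test between MSUS and Con (adjusted p under 0.10), against 25.1% of the 20571 genes tested. Tet2, an eraser, was higher in MSUS, where 13.1% of genes were called higher. Mbd3, the NuRD subunit, was lower, where 11.9% of genes were called lower. A share of 2 in 10 was close to that background, whose 5156 called genes became 3358 without MSUS female 2 and 3102 without MSUS female 3. The median log2 fold change of the members was -0.03, beside -0.0027 over all genes tested. All log2 fold changes, standard errors (SE) and adjusted p-values come from edgeR's quasi-likelihood test with Benjamini-Hochberg adjustment over all genes.

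Tet2 (chromosome 3, 133463679 to 133545139, minus strand) had a lowest, median and highest normalized count of 5343, 6341 and 6737 in Con females and 6526, 7003 and 7396 in MSUS females. The groups overlapped, but 3 of 6 MSUS females lay above every Con female and all 6 lay above the Con median. The mean was 6194 ± 493 in Con and 6986 ± 436 in MSUS (SD, n = 6 each), a log2 fold change of 0.18 (SE 0.06, edgeR adjusted p = 0.0492). In males the Tet2 counts were 6100, 6692 and 7282 in Con and 5336, 6823 and 7449 in MSUS, which overlapped almost throughout (log2 fold change -0.01, SE 0.08). Con females were thus the group with the lowest mean of Tet2, since the males averaged 6701 ± 416 in Con and 6646 ± 774 in MSUS.

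Mbd3 (chromosome 10, 80392539 to 80399550, minus strand) had a lowest, median and highest normalized count of 3175, 3237 and 3413 in Con females and 2922, 3023 and 3154 in MSUS females. Every MSUS female lay below every Con female, which 7.21% of genes tested showed in one direction or the other. The mean fell from 3264 ± 83.8 to 3020 ± 83.8 (SD, n = 6 each), a log2 fold change of -0.11 (SE 0.03, edgeR adjusted p = 0.0259). The male groups overlapped, at 2847, 3005 and 3185 in Con and 2860, 3075 and 3194 in MSUS (log2 fold change 0.01, SE 0.04). For Mbd3 the Con females were the group with the highest mean, and the other 3 groups averaged between 3020 and 3051.

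**Figure D2:**
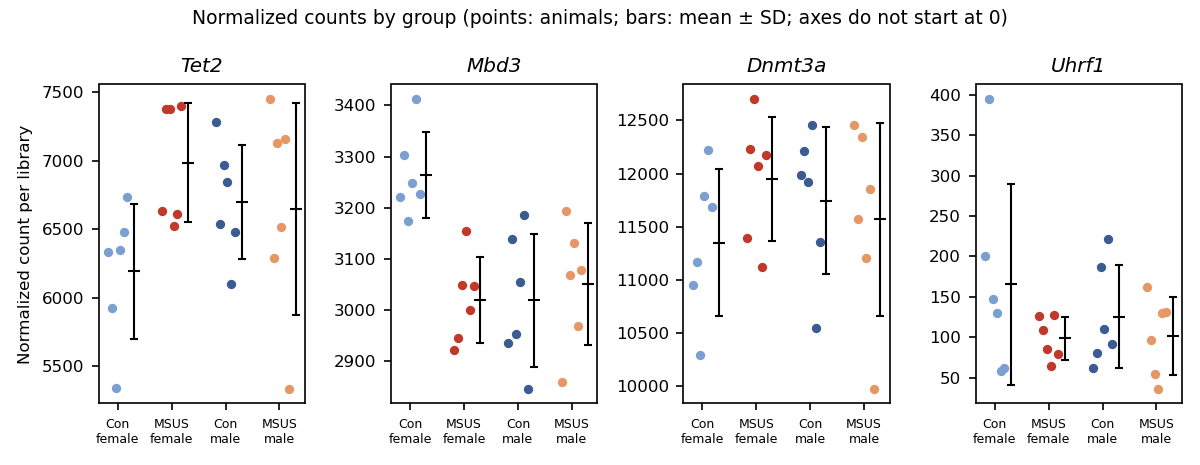
Normalized counts of Tet2, Mbd3, Dnmt3a and Uhrf1 in each animal by group, with mean ± SD (n = 6); the vertical axes do not start at 0. Mbd3 in MSUS females lay at 2922 to 3154, below all Con females at 3175 to 3413, whereas the groups of Tet2, Dnmt3a and Uhrf1 overlapped.

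Both called members moved with the unassigned share. They were picked here because they differed between the female groups, and the share also differed between those groups. The r over all libraries and its p-value are thus partly fixed by that choice. How many of all genes show such an r was not computed, so whether the relation is particular to these genes is not known. Over the 24 libraries Tet2 was higher where the unassigned share was higher (Pearson r = 0.76, permutation p = 2e-05, and Spearman rho = 0.88, p = 1e-05, the smallest the resampling can give). Mbd3 was lower there (r = -0.79, permutation p = 1e-05, and rho = -0.79, p = 3e-05). After Benjamini-Hochberg adjustment over 30 relations the p-values were 0.0002 and 0.00015 for the r of Tet2 and Mbd3 and 0.00015 and 0.0003 for their rho. Without the 2 libraries farthest from the median share, r was 0.73 for Tet2 and -0.79 for Mbd3. With group means removed it was 0.68 and -0.63. Within the groups of 6 the r of Tet2 was -0.08 (Con females), 0.96 (Con males), 0.66 (MSUS females) and 0.83 (MSUS males), near 0 in the first. For Mbd3 the 4 values were -0.35, -0.59, -0.57 and -0.80 in the same order.

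**Figure D3:**
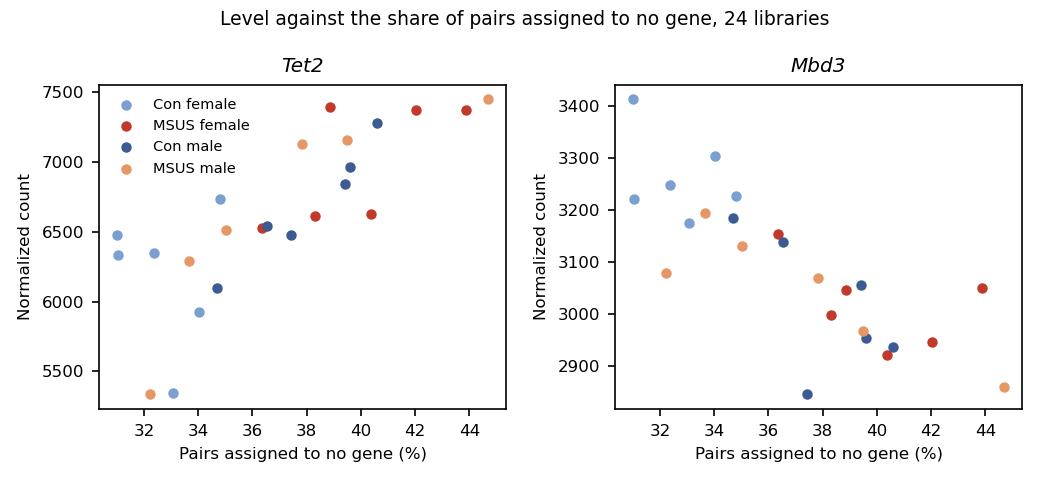
Normalized count of Tet2 (left) and Mbd3 (right) against the unassigned share in percent, 1 point per library, coloured by group. Con females lay at 31.0 to 34.8% and MSUS females at 36.3 to 43.9%, with Tet2 rising (r = 0.76) and Mbd3 falling (r = -0.79) over the 24 libraries.

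With the unassigned share as a covariate, no member was called in females. Tet2 then had a log2 fold change of 0.06 (adjusted p = 0.908) and Mbd3 of -0.06 (adjusted p = 0.799), and none of the 20571 genes passed by edgeR (1174 at an unadjusted p under 0.05). Because the share did not overlap between the groups, it and MSUS cannot be told apart among females. The called members were also the extremes of the list in sequence: Tet2 had the longest exonic sequence (16870 bases) and the lowest GC content (44.1%), and Mbd3 the shortest (1987 bases) and the highest GC content (61.6%). Of the uncalled members, the nearest to Tet2 in GC content was Tet1 at 44.7% (log2 fold change -0.01). In length the nearest were Tet3 at 16695 bases (log2 fold change -0.01) and Dnmt3a at 16642 bases (0.08). The nearest to Mbd3 were farther off, Tet3 in GC content (55.8%) and Mbd2 in length (3214 bases, log2 fold change -0.04). With offsets for GC content and length, Tet2 had a log2 fold change of 0.12 (adjusted p = 0.266), and Mbd3 turned to 0.04 (adjusted p = 0.477). Tet2 also lost its call, at a log2 fold change of 0.12 (adjusted p = 0.12), without the Con female libraries 2 and 3, which were rich in the cortical marker Slc17a7, while Mbd3 did not (adjusted p = 0.0395). Leaving out MSUS female 3 alone gave Tet2 an adjusted p of 0.115.

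None of the writers passed the test in females. Dnmt3a (chromosome 12, 3806007 to 3914443, plus strand), the main de novo methyltransferase of neurons, had lowest, median and highest counts of 10290, 11423 and 12221 in Con and 11120, 12125 and 12701 in MSUS (log2 fold change 0.08, SE 0.05, edgeR adjusted p = 0.247). Dnmt1 (chromosome 9, 20907209 to 20959888, minus strand) had 3903, 4127 and 4554 in Con and 3848, 3969 and 4072 in MSUS (log2 fold change -0.06, SE 0.04, edgeR adjusted p = 0.255). For Dnmt1 no MSUS female reached the Con median, but the groups overlapped. Dnmt3b (chromosome 2, 153649450 to 153687730, plus strand) had 38.1, 49.8 and 71.9 in Con and 33.1, 47.0 and 57.3 in MSUS (log2 fold change -0.14, SE 0.19).

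Dnmt3a and Tet2, a writer and an eraser, were the most closely related pair among the 45 pairs of members over the 24 libraries. Their log2 CPM had a Pearson r of 0.86, and 0.86 again with group means removed, given here as a description since both genes were measured in the same libraries. The next highest pair was Dnmt3a with Mbd1 (r = 0.61). Dnmt3a was also higher where the unassigned share was higher (r = 0.57, permutation p = 0.00316, adjusted 0.0158, and rho = 0.58, p = 0.00311, adjusted 0.0155; r = 0.50 without the 2 farthest libraries). Dnmt1 was lower there (r = -0.58, permutation p = 0.00249, adjusted 0.0149, and rho = -0.70, p = 0.0002, adjusted 0.0015; r = -0.60 without the 2 farthest libraries). Within groups r lay between -0.14 (Con females) and 0.75 (MSUS males) for Dnmt3a, and between -0.78 (MSUS females) and 0.01 (Con females) for Dnmt1. Tet2 and Dnmt3a were both lowest in MSUS male 6 and next lowest in Con female 3, the 2 libraries with the most Slc17a7 (61383 and 61673 normalized counts).

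Uhrf1 (chromosome 17, 56303321 to 56323486, plus strand), which recognises hemimethylated CpGs during replication, varied with the markers of dividing cells. Its 6 counts in Con females were 200.8, 395.1, 147.3, 129.7, 57.7 and 61.6 for animals 1 to 6, and in MSUS females they were 126.0, 108.6, 85.4, 64.1, 127.8 and 78.9. The Con females spanned the whole range of the MSUS females, and 1 of them stood far above the rest. The log2 fold change was -0.75 (SE 0.43, edgeR adjusted p = 0.246), and it was -0.27 (SE 0.32) without Con female 2. In males the counts ran from 62.0 to 221.0 in Con and from 36.0 to 161.6 in MSUS (log2 fold change -0.30, SE 0.39). Over the 24 libraries Uhrf1 was higher with a higher mean log2 CPM of 8 markers of dividing cells and neuroblasts (r = 0.97, permutation p = 1e-05, and rho = 0.96, p = 1e-05, each adjusted to 0.00015 over 30 relations). This r was 0.95 without the 2 farthest libraries and lay between 0.95 and 0.99 within each of the 4 groups. The proliferation marker Mki67 was 1938 in Con female 2 and 124 in MSUS male 4, the animals with the highest and lowest Uhrf1. Among all genes with a mean of at least 100 counts, Uhrf1 was most like the replication topoisomerase Top2a, itself 1 of the 8 markers (r = 0.98 over 24 libraries). With the dividing-cell score as a covariate, an alternative chosen after seeing the data, the log2 fold change of Uhrf1 in females was 0.18 (SE 0.13). Of the 8 markers 2 were called lower in MSUS females, Pcna and the neuroblast factor Dlx2, beside 11.9% of all genes tested. The summed level of the list ran from 8890 to 16544 in Con females and from 9038 to 11674 in MSUS females.

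**Figure D4:**
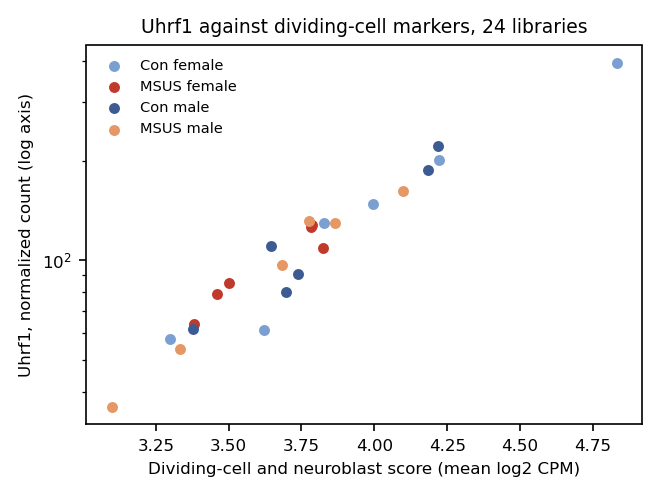
Normalized count of Uhrf1 (log axis) against the mean log2 CPM of 8 dividing-cell and neuroblast markers, 1 point per library, coloured by group. The points of all 4 groups followed 1 line (r = 0.97), from 36.0 counts in MSUS male 4 to 395.1 in Con female 2.

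The remaining erasers were nearly level between MSUS and Con females. Tet1 (chromosome 10, 62804570 to 62908996, minus strand) had lowest, median and highest counts of 2325, 2445 and 2572 in Con and 2334, 2360 and 2585 in MSUS (log2 fold change -0.01, SE 0.04). Tet3 (chromosome 6, 83362373 to 83459084, minus strand), the most abundant Tet transcript per length, had 8160, 8917 and 9438 in Con and 8286, 8819 and 9190 in MSUS (log2 fold change -0.01, SE 0.04). Both pairs of groups overlapped almost fully.

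Of the readers, Mbd1 (chromosome 18, 74267605 to 74282732, plus strand) had lowest, median and highest counts of 2535, 2717 and 2846 in Con females and 2704, 2798 and 2985 in MSUS females (log2 fold change 0.07, SE 0.04, edgeR adjusted p = 0.2). Mbd2 (chromosome 18, 70568189 to 70626131, plus strand), which can take the place of Mbd3 in NuRD, had 2164, 2471 and 2676 in Con and 2278, 2380 and 2515 in MSUS (log2 fold change -0.04, SE 0.04). Neither passed the test and both pairs of groups overlapped. Mbd1 was lower in libraries with a higher cortical marker score (r = -0.62, permutation p = 0.00111, adjusted 0.00832, and rho = -0.68, p = 0.00036, adjusted 0.00216; r = -0.63 without the 2 farthest libraries). Within groups that r was -0.97 (Con females), -0.58 (Con males), -0.05 (MSUS females) and -0.69 (MSUS males). Mbd1 was not alone in this. Tet2 had r = -0.53 with the cortical score (permutation p = 0.00766, adjusted 0.0328, and rho = -0.48, adjusted 0.0851). Its r was -0.40 with group means removed, and within groups between -0.78 (Con females) and 0.21 (MSUS females). Dnmt3a had r = -0.49 (permutation p = 0.0152, adjusted 0.0508).

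In males no member passed the test between MSUS and Con, where 0.0% of the 20691 genes tested did. None of the 10 reached an unadjusted p under 0.05, and DESeq2 called 0 as well. The log2 fold changes lay between -0.30 for Uhrf1 and 0.04 for Mbd2, with a median of -0.01. The standard error of Tet2 was 0.08 in males and 0.06 in females, and that of Mbd3 0.04 and 0.03. Among the writers, Dnmt3a had lowest, median and highest counts of 10552, 11951 and 12460 in Con males and 9976, 11716 and 12456 in MSUS males. Dnmt1 had 3661, 3897 and 4100 in Con males and 3708, 3966 and 4147 in MSUS males. Both enzymes overlapped over nearly their whole range, and Dnmt3b did too, at 34.4 to 60.0 in Con and 35.5 to 69.0 in MSUS. Tet1 had 2431, 2547 and 2613 in Con males and 2330, 2582 and 2669 in MSUS males, so that the MSUS males lay on both sides of the Con range. Mbd1 had 2543, 2680 and 2892 in Con males and 2585, 2751 and 2832 in MSUS males. Mbd2 had 2231, 2390 and 2562 in Con males and 2277, 2471 and 2624 in MSUS males, again with overlap.

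**Figure D5:**
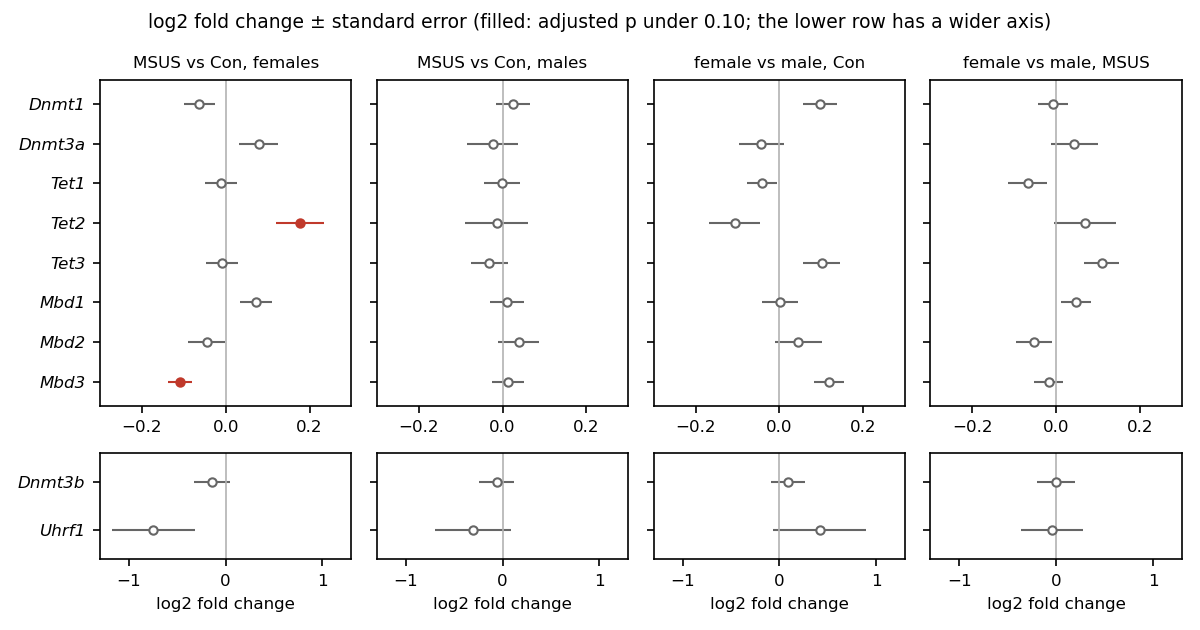
log2 fold change ± SE of each member in 4 comparisons from edgeR, with filled points for an adjusted p under 0.10; Dnmt3b and Uhrf1 have a wider axis. Only Tet2 (0.18) and Mbd3 (-0.11) in MSUS against Con females were filled.

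The group-by-sex interaction, which asks whether the MSUS difference was unequal in females and males, called 0 of 10 members and 0.0% of 21500 genes by edgeR, although 4031 genes had an unadjusted p under 0.05. DESeq2 called 467 of these genes and 0 members. Mbd3 was the only member with an unadjusted p under 0.05 (interaction log2 fold change -0.13, SE 0.05, edgeR adjusted p = 0.204), and it was called without MSUS male 1 (adjusted p = 0.065), a fit in which 3031 of 21617 genes were called. Tet2 had an interaction of 0.19 (SE 0.10, edgeR adjusted p = 0.291). The difference between the sexes in the response of either gene did not pass this test.

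Between Con females and Con males no member passed the test, beside 2.64% of 20641 genes, and this comparison shares its Con females with the one above. That background of 544 genes ranged from 20 without Con female 4 to 1395 without Con male 5 when 1 animal was left out. Mbd3, Dnmt1 and Tet3 had an unadjusted p under 0.05, all higher in females. Mbd3 was higher by a log2 fold change of 0.12 (SE 0.04, edgeR adjusted p = 0.128), with 5 of 6 females above every male, and DESeq2 called it (adjusted p = 0.0574) among 1511 of the 20641 genes. Dnmt1 was at 0.10 (SE 0.04, edgeR adjusted p = 0.238), and at 0.05 without Con female 2. Tet3 was at 0.10 (SE 0.04, edgeR adjusted p = 0.244). Between MSUS females and MSUS males no member passed, beside 0.135% of 20714 genes (28, and 64 without MSUS male 1), and DESeq2 called 167 genes and 0 members. Tet3 alone had an unadjusted p under 0.05, with a log2 fold change of 0.11 (SE 0.04, edgeR adjusted p = 0.629) and 5 of 6 females above every male. Its counts were 7683, 8417 and 8680 in Con males and 7587, 8136 and 8598 in MSUS males, below the female medians in both groups.

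The partners of the members were followed by 6 lists holding 63 genes, of which 62 were tested. In females 16 passed, 5 higher and 11 lower in MSUS, or 25.8% beside 25.1% of all genes, with a median log2 fold change of -0.03. Among 8 tested partners of maintenance and de novo methylation 2 rose and 2 fell. Uhrf2, the paralogue of Uhrf1, rose by a log2 fold change of 0.13 (adjusted p = 0.00831), as did Trdmt1, an RNA methyltransferase of the Dnmt family, by 0.27, while the corepressor Trim28 (-0.10) and the Dnmt1-binding Dmap1 (-0.12) fell. Of 20 base excision and Tet partners 2 rose and 3 fell. Ogt, which adds O-GlcNAc and binds Tet proteins, rose by 0.18 (adjusted p = 0.00583), and Cxxc4, whose product binds Tet2, rose by 0.23. Gadd45a (-0.46), a demethylation cofactor, and the strand-break sensor Parp1 (-0.26) fell, and Cxxc5 fell by a log2 fold change of 0.56.

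Among 11 methyl donor genes Mtr, the methionine synthase, rose by 0.09, and Shmt2 (-0.23) and Mat2b (-0.18) of folate and S-adenosylmethionine supply fell. Of 12 NuRD partners of Mbd2 and Mbd3 none rose and 2 fell, Gatad2a (-0.21, adjusted p = 0.0542) and Mta1 (-0.09, adjusted p = 0.0864), and the list's median was -0.05. Among 5 other methyl-CpG binding genes Zbtb4 fell (-0.09), and among 6 binders of unmethylated CpGs Fbxl19 fell (-0.10). In males, between MSUS females and males, and in the interaction, 0 of the 62 passed by edgeR. The smallest p of each list in males belonged to Cdca7l (log2 fold change -0.40), Ahcy (-0.04), Neil3 (-0.45), Mbd6 (-0.08), Chd5 (0.10) and Kmt2b (-0.05), none under an unadjusted 0.05. Between MSUS females and males they belonged to Uhrf2 (0.10), Mat2a (0.13), Gadd45g (0.26), Mbd6 (0.11), Gatad2a (-0.16) and Fbxl19 (0.10), and in the interaction to Trdmt1 (0.27), Shmt2 (-0.22), Ogt (0.18), Zbtb38 (-0.14), Gatad2a (-0.26) and Kmt2a (0.10). Between Con females and males 3 of the 62 passed, or 4.84% beside 2.64% of all genes. All 3 were higher in females, whereas of all genes called there 165 were higher and 379 lower. They were the early-response gene Gadd45b (0.40, adjusted p = 0.0428), Shmt2 (0.18) and Fbxl19 (0.17). In the lists with no call there, the smallest p belonged to Trdmt1 (-0.27), Zbtb4 (0.08) and Mta2 (0.09). Of the oligodendrocyte markers 5 of 7 were called lower in MSUS females, and of the astrocyte markers 2 of 6, beside 11.9% of all genes tested. Summed oligodendrocyte levels ran from 213561 to 322816 in Con females and from 194942 to 238493 in MSUS females. All 6 cortical excitatory markers had a negative log2 fold change in MSUS females (median -1.83), and 1 of them passed, Emx1 (-1.82, adjusted p = 0.0944). With the cortical score as a covariate Tet2 had a log2 fold change of 0.14 (adjusted p = 0.258) and Mbd3 of -0.13 (adjusted p = 0.0591), and the part of the oligodendrocyte and astrocyte markers in the values of the members was not tested.

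For each member the single most similar gene was sought among about 14312 genes with a mean of at least 100 counts, by Pearson r of log2 CPM over the 24 libraries. The closest were Gabpb2 for Tet2 (r = 0.96), Bag6 for Mbd3 (0.93), Cacna2d3 for Dnmt3a (0.92), Nxf1 for Mbd1 (0.88), Pcp4l1 for Mbd2 (0.85), Arvcf for Dnmt1 (0.84), Nin for Tet3 (0.80), Mpzl1 for Tet1 (0.76) and Cecr2 for Dnmt3b (0.68). These are descriptions over shared libraries. No gene on the same strand shared exonic bases with a member, and sense counts made up at least 98.6% of each member's unstranded counts.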

How the data were processed

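RNA of 24 NAc punches was sequenced after ribosomal RNA depletion as stranded read pairs. The authors aligned the reads with STAR (2.6.1b in the submitters' processing notes) to mm10 with GENCODE M15 and deposited counts of read pairs per gene for each library. The sense-strand counts were used, and the unstranded counts only as an alternative. Rows that name no gene stayed out of library sizes and tests, and the no-feature pairs on the sense strand give the unassigned share (31.0 to 44.7% of uniquely mapped pairs).

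Counts were tested with edgeR 4.0.16 (TMM scaling, filterByExpr with a minimum count of 10, robust quasi-likelihood test) in R 4.3.3, over all genes and with only the groups compared in each fit, and Benjamini-Hochberg adjusted p under 0.10 was called. The study's own tool, DESeq2 (1.42.0 here), was an alternative. Estrous stage was left out, because some males carry one in the labels and some females do not. The study did include estrous status in its female model, so the spread within female groups here holds a factor that was not modelled. Normalized counts are counts divided by DESeq2 size factors over the 24 libraries. Per-length levels and coordinates use GENCODE M21 on GRCm38, the assembly of mm10, and 52489 of 52636 gene identifiers matched. Relations over libraries used log2 of CPM plus 0.05, 100000 resamples and two-sided p-values. The relations with both marker scores, the fits with the dividing-cell score and without libraries over 30000 normalized counts of Slc17a7 were chosen after seeing the data. Marker scores are the mean log2 CPM of a list. The scripts were tested on simulated counts.

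The members were chosen by name. Earlier results of these data were nevertheless known when the members, the partner lists and the markers were set, so no list is independent support. All 10 members are given in full. For partners, up to 2 that rose and 2 that fell per list and comparison were named by smallest p, or 1 where none passed, and Cxxc5 was named beyond that rule after its value was seen. Replicate numbers were checked for pairing by the correlation of deviations from group means between same-numbered animals. It exceeded 0.1 in 3 of 6 pairs of MSUS and Con females and in 2 of 6 of MSUS and Con males. Between the sexes it did so in 2 of 6 Con pairs and 3 of 6 MSUS pairs (highest r 0.40). Of the 12 MSUS animals 4 correlated best with their own number in the other sex. The spliced share covariate is splices per uniquely mapped pair from the study's library statistics, and the library set covariate divides the libraries by number into the first and last 12. Alternatives were another tool, scaling, filters, strand, block, covariates, GC and length offsets, a joint fit and leaving out each animal.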

Additional observations from a re-analysis of the deposited data

Results flagged for a closer look

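In the 40 sets of 6 animals (10 members in 4 groups), the highest or lowest animal stood apart from the others in 2 by Dixon's criterion, which chance alone meets in about 1 in 20 sets. Dnmt1 in Con female 2 was 4554 normalized counts, with the next Con female at 4134. That library also held the most Uhrf1 (395.1) and the most Mki67 (1938) of the 24. Without it the log2 fold change of Dnmt1 between MSUS and Con females was -0.03 and that between Con females and males 0.05, neither called with or without it. Dnmt3b in MSUS male 5 was 69.0 normalized counts, with the next MSUS male at 47.2, at a count where counting error alone gives a coefficient of variation of 14.5%.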

How the results depend on the processing

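In females both called members, Tet2 and Mbd3, stayed called with DESeq2, DESeq2 size factors, either other count filter, unstranded counts, the library set covariate, a fit of all 24 animals and an adjusted p under 0.05. The count fell to 1 (Mbd3 alone) with the cortical score covariate, the dividing-cell score covariate and without the Slc17a7-rich libraries, and to 0 with the covariate for unassigned pairs, the spliced share covariate, GC and length offsets, and those offsets with the replicate block. The cause was not tested. The replicate block alone left 1 (Tet2 adjusted p = 0.104). Same-numbered animals of the female groups correlated between -0.24 and 0.25, so the numbers were not taken to pair them, and only 2 of 12 animals correlated best with their own number. Genes called in females numbered 5156 in the reported fit, 3800 with the block, 2529 with GC and length offsets, 1002 with both, 1720 with the cortical score and 0 with the share of unassigned pairs. Leaving out 1 animal gave 3102 to 5737, with over 1.5 times fewer only without MSUS female 2 (3358) or 3 (3102). Between Con females and males 544 genes were called, 20 to 51 without Con female 1, 4 or 5 or Con male 1, 3 or 4, 93 without Con female 2, 284 without Con male 6 and 1395 without Con male 5.

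Leaving out 1 animal gave 1 to 2 members in females (1 without MSUS female 3), 0 to 1 in the interaction (Mbd3 without MSUS male 1) and 0 elsewhere. Between Con females and males the count was 1 (Mbd3) with DESeq2 and with unstranded counts, and 0 otherwise. The MSUS minus Con difference of the unassigned share was 6.46 to 7.97 percentage points in females and -2.40 to 0.0898 in males when 1 animal was left out.

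Reversed log2 fold changes, none of them called, were as follows. With the spliced share covariate they were 0.044 for Dnmt1 and 0.096 for Dnmt3b in females, 0.018 for Tet2 and -0.00059 for Mbd3 in males, -0.012 for Dnmt1 and 0.042 for Tet2 between Con females and males, -0.019 for Tet2 and 0.015 for Mbd3 between MSUS females and males, and -0.047 for the interaction of Tet2. With GC and length offsets, in females they were 0.00031 for Dnmt1, 0.040 for Tet3, 0.032 for Mbd2 and 0.042 for Mbd3, and with the replicate block added 0.00055, 0.040, 0.035 and 0.042. The same offsets gave Mbd3 0.0031 between MSUS females and males and 0.0063 in the interaction, and 0.0036 and 0.0067 with the block. With the cortical score Dnmt3b was 0.10 and Tet3 0.026 in females. With the dividing-cell score Dnmt3b was 0.022, Tet1 0.0037, Tet3 0.0024 and Uhrf1 0.18 in females. Without Slc17a7-rich libraries Dnmt3b was 0.016 and Tet3 0.027 in females and Tet2 0.016 in males. With the unassigned share Tet2 was 0.013 in males, 0.018 between Con females and males, -0.014 between MSUS females and males and -0.052 in the interaction, and Mbd3 was 0.0091 between MSUS females and males. Leaving out 1 animal gave -0.028 to 0.013 for Tet1 and -0.030 to 0.013 for Tet3 in females, and -0.046 to 0.042 for Tet2 and -0.0028 to 0.033 for Mbd3 in males. Among the 29 other pairings of a member with a comparison, 100 of 871 fits had the opposite sign and 0 were called.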
